A study of Mus musculus with 8 samples.

Results

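The genes described here are 9 transporters that move glucose and small monocarboxylates such as lactate, pyruvate, short-chain fatty acids and ketone bodies across the cell membrane. They were chosen by gene symbol from the 47643 genes of the deposited tables, namely Slc5a1, Slc5a2, Slc2a1, Slc2a2, Slc5a8, Slc5a12, Slc16a1, Slc16a3 and Slc16a9, and all 9 had enough counts to be tested. RNA was sequenced from whole kidneys of 8 mice, 4 conditional knockout (cKO) mice and 4 wild-type (WT) mice. In the cKO mice, Six2-Cre recombined a floxed Cox10 gene, whose product, heme A farnesyltransferase, makes a heme of cytochrome c oxidase, the last complex of the mitochondrial respiratory chain. In each genotype replicates 1, 3 and 4 were 3 months old and replicate 2 was 2.5 months old. Six2-Cre acts in nephron progenitors, so the deletion reaches nephron epithelium and spares the collecting duct, vessels and blood cells. The labels do not give strain or sex, whether WT mice carried Cre or floxed alleles, or whether mice of a group came from separate litters, and the p-values cover only the spread between these mice.

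The kidney filters glucose and lactate freely and takes both back in the proximal tubule. At the brush border facing the urine, sodium-coupled carriers of the SLC5 family pull sugar or monocarboxylate into the cell against its gradient, and at the basolateral side carriers of the SLC2 (GLUT) family let glucose out towards the blood. Carriers of the SLC16 (MCT) family exchange lactate, pyruvate and ketone bodies together with protons, in the direction set by the gradients. The early proximal tubule is known to make glucose and to burn little of it, whereas more distal segments use glucose and release lactate.

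Library totals ran from 9454830 to 14837448 counts in cKO and from 9731334 to 15838026 in WT. Levels are given as CPM, the count of a gene relative to the scaled total of its library, and a gene is called higher or lower where the edgeR quasi-likelihood test gave a Benjamini-Hochberg adjusted p under 0.05 over all 13829 genes tested. By that rule 16.7% of all genes were called, 9.57% higher and 7.14% lower in cKO. Reads of Y-linked genes were present in cKO 3 and in WT 2, WT 3 and WT 4, and cKO 1, cKO 2, cKO 4 and WT 1 had 0 of them, so sex and genotype were partly confounded. Each transporter's call is therefore given beside a fit with a sex term, under which 6.8% of all genes were called. Cox10 itself had 18.4 ± 5.12 CPM in cKO and 20.96 ± 2.47 CPM in WT (SD, n = 4 each), a log2 fold change of -0.19 with an adjusted p of 0.619. Since the floxed exons are not named in the labels, this total does not check the genotype.

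Of the 9 transporters, 5 (55.6%) were called, 2 higher and 3 lower in cKO, beside 16.7% of all genes. The 9 were chosen with earlier results of these data known, so setting their shares beside those of all genes is a description and not a test. The 2 called higher were the proton-linked carriers Slc16a1 and Slc16a3. The 3 called lower were the sodium-coupled carriers Slc5a2, Slc5a8 and Slc5a12, all known from the proximal tubule brush border. The median log2 fold change of the 9 was -0.60, against -0.01 over all genes tested. In 3 of the 9 (33.3%) the 4 cKO libraries lay wholly above or wholly below the 4 WT libraries, 2 of them above and 1 below. That was so for 22.6% of all genes, with 13.1% above and 9.56% below. With a sex term all 9 kept the sign of their log2 fold change, and only Slc16a1 of the 9 was called, beside 6.8% of all genes. Bulk tissue cannot tell apart fewer cells of a type and less RNA per cell, which holds for each of these differences.

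**Figure D1:**
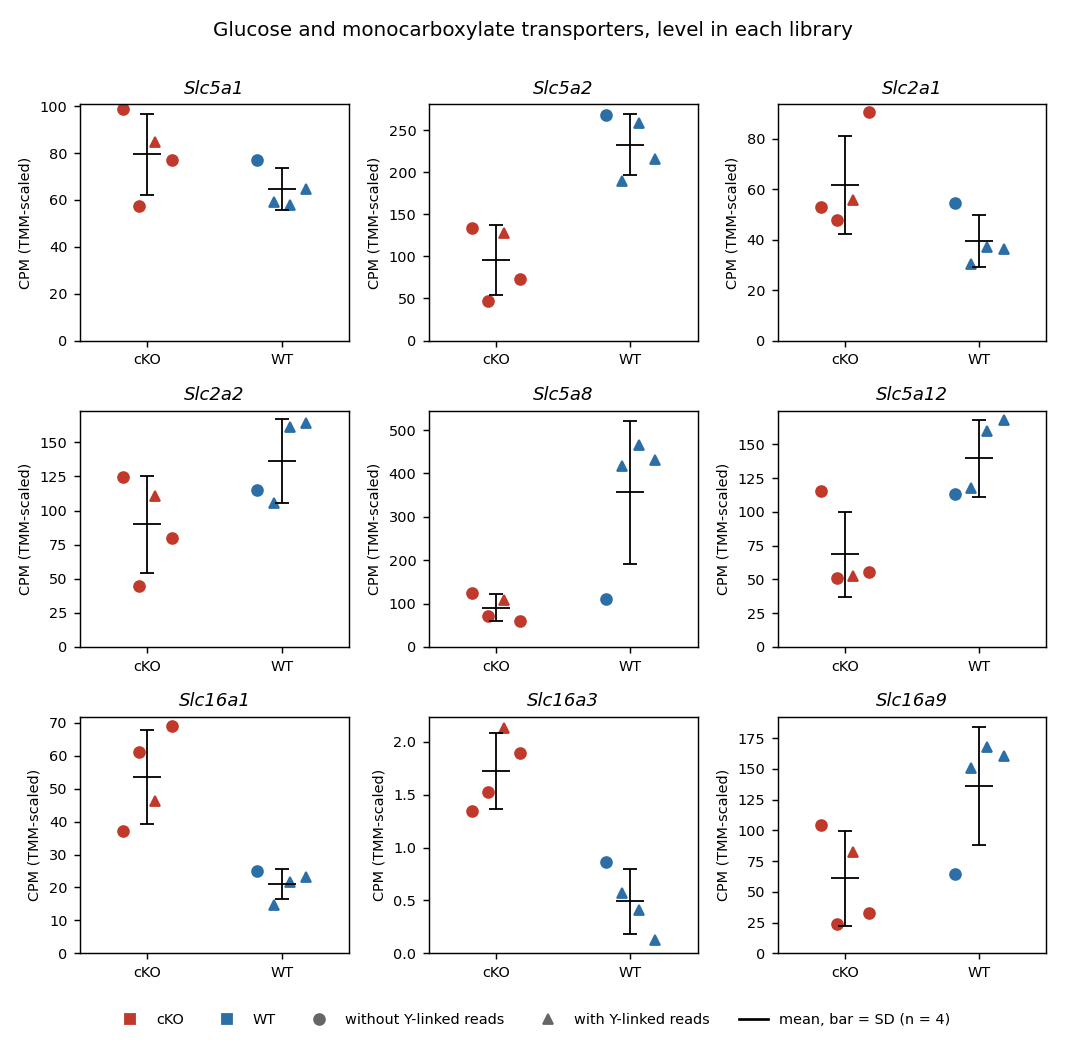
Level of each transporter in each of the 4 cKO libraries (red, left) and 4 WT libraries (blue, right), in TMM-scaled CPM on a linear axis from 0; circles lack and triangles hold Y-linked reads, and black bars give the mean and SD. The groups separate for Slc5a2, Slc16a1 and Slc16a3, and WT 1, the only WT circle, lies beside the cKO libraries for Slc5a8 and Slc16a9.

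Slc5a2 encodes SGLT2, the high-capacity sodium-glucose cotransporter of the early proximal tubule that takes up most of the filtered glucose and is the target of the gliflozin drugs. Its gene lies at chr7:128265657-128272430 on the mm10 build. Slc5a2 had 133, 47.5, 128 and 73.6 CPM in cKO 1 to cKO 4, against 268, 190, 258 and 216 CPM in WT 1 to WT 4. All 4 cKO libraries lay below all 4 WT libraries, with cKO 2 and cKO 4 lowest. Slc5a2 averaged 95.6 ± 41.8 CPM in cKO and 233 ± 36.7 CPM in WT (SD, n = 4 each), and its log2 fold change was -1.29 (SE 0.32, 95% interval -1.98 to -0.59). The edgeR adjusted p was 0.0190, and the exact two-sided permutation p was 0.0286, the smallest that 70 assignments of 4 against 4 libraries can give. The call was lost without cKO 4, at an adjusted p of 0.0723, and with the sex term, at a log2 fold change of -1.23 and an adjusted p of 0.0584. Over the 22 alternatives tried the adjusted p of Slc5a2 ran from 0.00108 to 0.535. The opposite-strand gene BC017158 overlaps Slc5a2 and held 68 to 243 counts in cKO and 131 to 339 in WT, and since the strand setting of the counting is not given in the sources used here, a share of reads could be exchanged between them.

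Slc5a1 encodes SGLT1, the high-affinity, low-capacity cotransporter that recovers what SGLT2 leaves, mainly in the late proximal tubule, and that also absorbs glucose and galactose in the gut. The gene lies at chr5:33104219-33162870. Slc5a1 had 98.6, 57.3, 84.7 and 77.1 CPM in cKO 1 to cKO 4 and 77.1, 59.2, 57.8 and 64.7 CPM in WT 1 to WT 4. The genotypes overlapped, with cKO 2 the lowest of all 8 libraries and cKO 1 the highest. The genotype difference was 0.30 on the log2 scale (SE 0.21, 95% interval -0.17 to 0.76), and at an adjusted p of 0.351 Slc5a1 was not called. It was 0.01 in libraries lacking Y-linked reads and 0.48 in those with them.

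Set against each other within a library, the paired sodium-glucose cotransporters separated the genotypes. The ratio of Slc5a1 to Slc5a2 counts was 0.740, 1.21, 0.662 and 1.05 in cKO 1 to cKO 4, against 0.287, 0.311, 0.224 and 0.300 in WT 1 to WT 4. Every cKO ratio lay above every WT ratio, including cKO 3 beside the WT libraries with Y-linked reads and WT 1 beside the cKO libraries without. On the log2 scale the mean ratio was -0.17 ± 0.41 in cKO and -1.85 ± 0.22 in WT (SD, n = 4 each), a difference of 1.67. It stayed between 1.52 and 1.81 when any library was left out. Such a ratio does not depend on the scaling between libraries and does not show which of the pair moved, and it was not tested.

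Slc2a2 encodes GLUT2, the low-affinity basolateral carrier through which reabsorbed and newly made glucose leaves the early proximal tubule. Its position is chr3:28697903-28731359. Slc2a2 had 124, 44.7, 110 and 79.8 CPM in cKO 1 to cKO 4 and 115, 105, 161 and 164 CPM in WT 1 to WT 4. cKO 2 and cKO 4 were below every WT library, while cKO 1 and cKO 3 lay within the WT range. The log2 fold change was -0.60 (SE 0.30, 95% interval -1.27 to 0.06) with an adjusted p of 0.190, so Slc2a2 was not called. It was not called in any of the 22 alternatives either, where the adjusted p ran from 0.0577 to 0.839.

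Slc2a1 encodes GLUT1, the high-affinity carrier of many glucose-burning cells, which in the kidney is known from the later proximal tubule and the segments beyond it. The gene lies at chr4:119108711-119137983. Slc2a1 had 53.0, 47.8, 55.9 and 90.6 CPM in cKO 1 to cKO 4 and 54.4, 30.5, 37.2 and 36.4 CPM in WT 1 to WT 4. WT 1 stood among the cKO libraries, and cKO 4 was the highest of the 8. The log2 fold change was 0.64 (SE 0.26, 95% interval 0.08 to 1.21), but the adjusted p was 0.110 and Slc2a1 was not called. Without WT 1 it was called, at a log2 fold change of 0.83 and an adjusted p of 0.0431, and over the 22 alternatives the adjusted p ran from 0.0431 to 0.918. The sex term gave a log2 fold change of 0.46.

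The ratio of Slc2a1 to Slc2a2 counts was 0.427, 1.07, 0.507 and 1.14 in cKO 1 to cKO 4 and 0.473, 0.290, 0.231 and 0.222 in WT 1 to WT 4. cKO 1 lay below WT 1, so the genotypes overlapped, and the ratio exceeded 1 only in cKO 2 and cKO 4. The mean log2 ratio was -0.48 ± 0.73 in cKO and -1.79 ± 0.50 in WT (SD, n = 4 each).

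**Figure D2:**
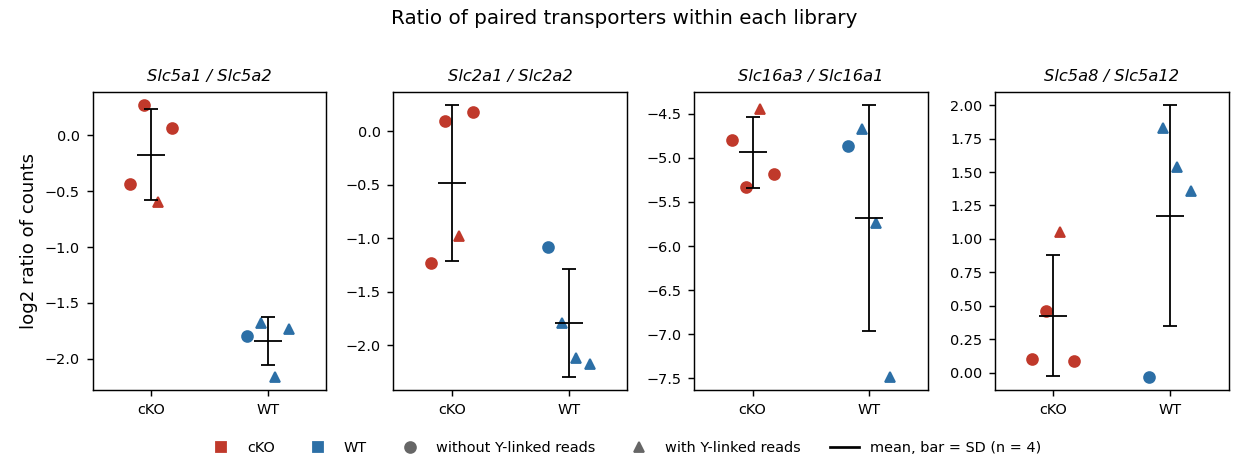
Log2 ratio of the counts of paired transporters within each library, for cKO (red, left) and WT (blue, right); circles lack and triangles hold Y-linked reads, and black bars give the mean and SD of 4 libraries. The groups separate for Slc5a1 over Slc5a2 and overlap for the other 3 ratios.

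Slc5a8 encodes SMCT1, the sodium-coupled carrier that takes filtered lactate, pyruvate, ketone bodies and short-chain fatty acids up with high affinity and is known from the later proximal tubule. Its gene lies at chr10:88885992-88929515. Slc5a8 had 124, 70.4, 108 and 59.1 CPM in cKO 1 to cKO 4, against 111, 417, 466 and 432 CPM in WT 1 to WT 4. WT 2, WT 3 and WT 4 stood far above every other library, and WT 1 lay among the cKO libraries. Slc5a8 averaged 90.5 ± 30.7 CPM in cKO and 356 ± 165 CPM in WT (SD, n = 4 each). Its log2 fold change of -1.98 (SE 0.42, 95% interval -2.90 to -1.06) was the largest fall among the 9, with an edgeR adjusted p of 0.009995 and, by exact permutation, a p of 0.0571.

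The WT libraries high in Slc5a8 were those with Y-linked reads, and the genotypes were therefore also compared within each set of libraries. Within the libraries with Y-linked reads Slc5a8 had 108 CPM in cKO 3 and 417 to 466 CPM in WT 2 to WT 4, a log2 fold change of -2.02. Within those without, it had 59.1 to 124 CPM in cKO 1, cKO 2 and cKO 4 and 111 CPM in WT 1, a log2 fold change of -0.39. The log2 fold change without Y-linked reads minus that with them was 1.63 in 1 fit of all libraries, with an unadjusted p of 0.0371 and an adjusted p of 1.00 by edgeR, so that the difference between the sets did not pass, and each contrast had a single library on 1 side. In the fit with the sex term Slc5a8 had a log2 fold change of -1.21 and an adjusted p of 0.145, so the call was lost. It was kept when any single library was left out, at adjusted p values from 0.000654 to 0.0447, and over all 22 alternatives the adjusted p ran from 3.0e-05 to 0.850.

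Slc5a12 encodes SMCT2, the low-affinity sodium-coupled lactate carrier known from the early proximal tubule, upstream of SMCT1. Its position is chr2:110597298-110647779. Slc5a12 had 116, 51.1, 52.2 and 55.8 CPM in cKO 1 to cKO 4, against 113, 117, 160 and 168 CPM in WT 1 to WT 4. cKO 2, cKO 3 and cKO 4 lay close together below all WT libraries, and cKO 1 lay just above WT 1. Slc5a12 averaged 68.7 ± 31.4 CPM in cKO and 140 ± 28.5 CPM in WT (SD, n = 4 each), a log2 fold change of -1.02 (SE 0.29, 95% interval -1.67 to -0.38) with an edgeR adjusted p of 0.0351 and, by exact permutation, a p of 0.0571. The call was lost without WT 3, WT 4, cKO 2, cKO 3 or cKO 4, at adjusted p values of 0.0797, 0.104, 0.0863, 0.0932 and 0.113, and with the sex term, at 0.133 and a log2 fold change of -1.06. Over the 22 alternatives it ran from 0.00441 to 0.726.

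The ratio of Slc5a8 to Slc5a12 counts was 1.07, 1.38, 2.07 and 1.06 in cKO 1 to cKO 4 and 0.979, 3.55, 2.91 and 2.56 in WT 1 to WT 4. The 3 WT libraries with Y-linked reads had the highest ratios, cKO 3, which also holds such reads, came next, and the 4 libraries without them lay at 1.38 or below. Among the libraries with such reads the WT ratios lay above that of cKO 3, and among those without them WT 1 was lowest. Sex and genotype were partly confounded, and the order was not tested.

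Slc16a1 encodes MCT1, the widely expressed proton-linked carrier of lactate, pyruvate and ketone bodies, which sits with its partner protein basigin in the basolateral membrane of tubule cells. The gene lies at chr3:104638668-104658462. Slc16a1 had 37.3, 61.1, 46.3 and 69.0 CPM in cKO 1 to cKO 4, against 25.1, 14.6, 21.7 and 23.1 CPM in WT 1 to WT 4. Every cKO library lay above every WT library, with cKO 4 and cKO 2 highest. Slc16a1 averaged 53.4 ± 14.3 CPM in cKO and 21.1 ± 4.58 CPM in WT (SD, n = 4 each), a log2 fold change of 1.34 (SE 0.25, 95% interval 0.79 to 1.88) or 2.52-fold. The edgeR adjusted p was 0.00511 and the exact permutation p 0.0286.

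Slc16a1 was called in 19 of the 22 alternatives, against 17 each for Slc5a2 and Slc5a8 and 11 each for Slc5a12 and Slc16a3. It stayed called when any library was left out, at adjusted p values from 0.00435 to 0.0211, and with the sex term, at a log2 fold change of 1.19 and an adjusted p of 0.0292. Between libraries lacking Y-linked reads its log2 fold change was 1.15, and between those with them 1.22, neither of which was called on its own. Without replicate 4 of both genotypes the adjusted p was 0.0589, and over the 22 alternatives it ran from 3.2e-05 to 0.339.

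Slc16a3 encodes MCT4, the low-affinity carrier with which glycolytic cells such as white muscle fibres and activated macrophages export lactate. Its position is chr11:120948480-120960868. Slc16a3 was rare in these kidneys, with 22, 14, 30 and 29 counts in cKO 1 to cKO 4, against 10, 5, 5 and 2 counts in WT 1 to WT 4. That gave 1.34, 1.52, 2.13 and 1.89 CPM in cKO, all above the 0.863, 0.574, 0.408 and 0.129 CPM in WT. The log2 fold change was 1.83 with a wide 95% interval from 0.73 to 2.93 (SE 0.50), an edgeR adjusted p of 0.029 and, by exact permutation, a p of 0.0286. The call was lost without WT 3, WT 4, cKO 2, cKO 3 or cKO 4, at adjusted p values of 0.0818, 0.0751, 0.0517, 0.0757 and 0.0830, and with the sex term, at 0.0889. Over the 22 alternatives it ran from 0.00824 to 0.790. Of 10 myeloid markers, which include genes of macrophages, 8 were called higher in cKO and none lower, 7 of them also with the sex term. The 2 not called, named after their values were seen, were Csf1r (log2 fold change -0.64) and Ptprc (0.46). The summed level of all 10 myeloid markers was 354 to 735 CPM in cKO and 99.8 to 175 CPM in WT. The part of these markers' cells in the Slc16a3 difference was not tested.

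Slc16a9 encodes MCT9, which is known in humans as a carrier of carnitine. Its position is chr10:70245100-70285968. Slc16a9 had 104.5, 24.0, 82.4 and 32.8 CPM in cKO 1 to cKO 4 and 64.8, 151, 168 and 161 CPM in WT 1 to WT 4. WT 1 stood between the cKO libraries, as it did for Slc5a8, and cKO 1 and cKO 3 lay well above cKO 2 and cKO 4. The log2 fold change was -1.16 (SE 0.45, 95% interval -2.15 to -0.17) with an adjusted p of 0.101, so Slc16a9 was not called. It was called without WT 1 (adjusted p 0.0418), without cKO 1 (0.0448) and by DESeq2 (0.0468), and over the 22 alternatives the adjusted p ran from 0.0418 to 0.948. The sex term gave a log2 fold change of -0.61.

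**Figure D3:**
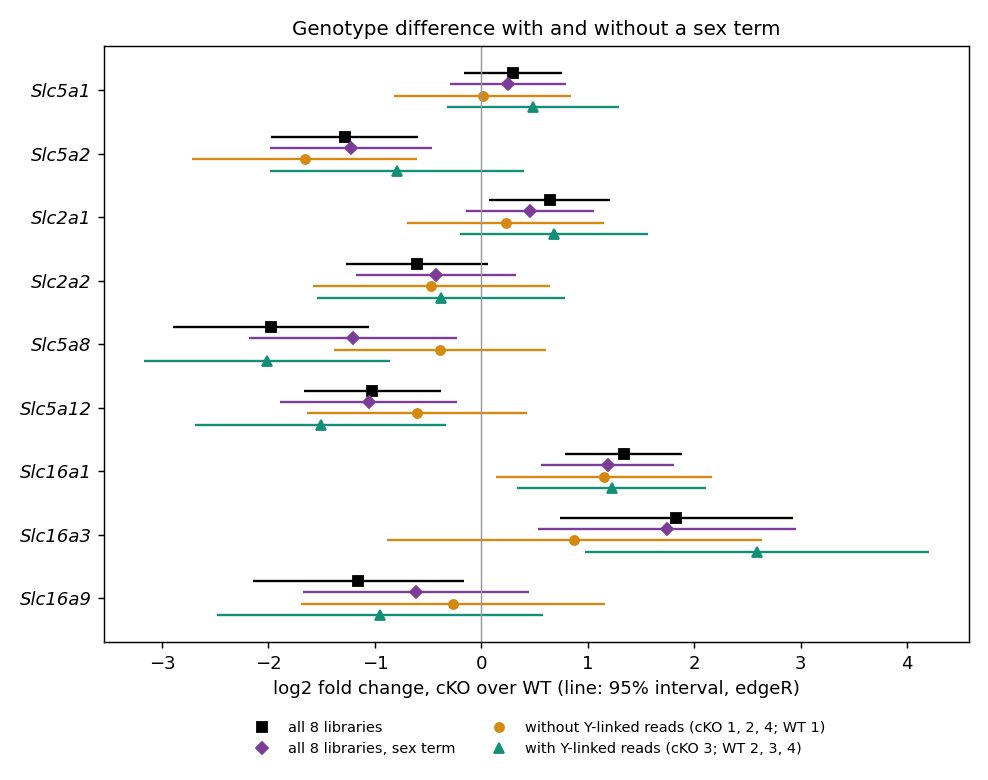
Log2 fold change of each transporter, cKO over WT, with its 95% interval by edgeR, from all 8 libraries (black), with a sex term, and within the libraries without and with Y-linked reads. Each transporter keeps its sign in the 4 fits, and the intervals within the last 2 sets, each with a single library on 1 side, are wide.

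Sequence was read from RefSeq (GRCm38.p6) for the 250 bases before the RefSeq start of a gene, which was available for 7 of the 9. That start can differ from the one in the gene positions given above, which are from GENCODE. The Slc16a3 window lies wholly inside its GENCODE gene, and those of Slc2a1 and Slc16a9 run into theirs. The sequences of the carriers called higher, Slc16a1 at chr3:104638414-104638663 and Slc16a3 at chr11:120948817-120949066, are printed beside those of Slc2a1 at chr4:119108495-119108744, the member with the next highest log2 fold change, and Slc5a8 at chr10:88885742-88885991, the member with the largest fall, so that the 2 directions can be compared. All 4 lie on the plus strand and are written 5′ to 3′, and capitals mark the motifs searched on both strands. These were ACGTG and GCGTG, the core forms to which hypoxia-inducible factors bind, AGTCCA, a core of HNF4 sites, and GTTAAT, a part of HNF1 sites. A CACGTG run holds ACGTG on both strands.
Slc16a1: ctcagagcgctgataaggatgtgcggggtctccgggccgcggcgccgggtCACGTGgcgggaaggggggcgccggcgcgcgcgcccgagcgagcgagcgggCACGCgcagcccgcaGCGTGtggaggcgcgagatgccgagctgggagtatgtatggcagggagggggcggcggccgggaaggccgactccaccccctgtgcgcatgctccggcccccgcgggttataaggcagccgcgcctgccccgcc
Slc16a3: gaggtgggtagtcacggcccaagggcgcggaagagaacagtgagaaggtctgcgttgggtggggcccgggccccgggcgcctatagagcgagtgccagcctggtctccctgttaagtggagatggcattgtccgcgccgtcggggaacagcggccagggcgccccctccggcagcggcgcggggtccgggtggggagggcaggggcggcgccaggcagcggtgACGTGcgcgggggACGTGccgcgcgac
Slc2a1: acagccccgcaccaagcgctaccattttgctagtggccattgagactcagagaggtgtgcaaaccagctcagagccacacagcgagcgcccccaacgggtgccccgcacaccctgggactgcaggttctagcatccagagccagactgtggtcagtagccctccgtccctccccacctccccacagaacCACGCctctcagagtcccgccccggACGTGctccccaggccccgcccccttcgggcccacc
Slc5a8: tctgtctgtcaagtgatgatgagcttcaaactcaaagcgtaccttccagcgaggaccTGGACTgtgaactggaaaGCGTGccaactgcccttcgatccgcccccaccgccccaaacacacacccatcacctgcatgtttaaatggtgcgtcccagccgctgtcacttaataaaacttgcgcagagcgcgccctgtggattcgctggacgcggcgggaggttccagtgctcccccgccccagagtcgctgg

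ACGTG was found in the windows of 4 of the 7 genes, namely Slc16a1, Slc16a3, Slc2a1 and Slc5a1, where 16.6% of 27025 promoters of the same length hold it. GCGTG was found in 5 of the 7, in Slc16a1, Slc16a9, Slc2a1, Slc5a1 and Slc5a8, against 28.2% of all promoters. AGTCCA occurred in the Slc5a8 window alone and in 11.6% of all promoters, and GTTAAT occurred in 0 of the 7 and in 6.52% of all. The 4 genes with ACGTG had log2 fold changes above 0, and only Slc16a1 and Slc16a3 of them were called. The 3 without had values below 0, and only Slc5a8 of them was called. Slc5a2 and Slc5a12, both called lower, had no window. The windows with ACGTG held 76.4% (Slc16a1), 73.6% (Slc16a3), 66.4% (Slc2a1) and 60.0% (Slc5a1) G or C. Those without held 70.4% (Slc16a9), 58.8% (Slc5a8) and 47.2% (Slc2a2). The shares over all promoters were not matched for this content. Whether the motif goes with the direction was not tested. A match gives letters in this window and not a bound site.

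Levels between the transporters were compared per kilobase of exon. In cKO kidneys Slc5a2 came first at 32.99 ± 14.4 CPM per kilobase, followed by Slc5a1 (19.4), Slc2a1 (17.6), Slc5a8 (17.0), Slc5a12 (16.9), Slc16a9 (15.8), Slc2a2 (15.6), Slc16a1 (12.1) and Slc16a3 (0.324). Apart from Slc16a1 over Slc16a3, the ranges of all neighbours in that order overlapped. In WT kidneys the order was Slc5a2 at 80.5 ± 12.7 CPM per kilobase, Slc5a8 (66.9), Slc16a9 (35.2), Slc5a12 (34.4), Slc2a2 (23.7), Slc5a1 (15.8), Slc2a1 (11.3), Slc16a1 (4.77) and Slc16a3 (0.0928). There only Slc2a1 over Slc16a1 and Slc16a1 over Slc16a3 were neighbours whose ranges did not overlap. By group mean Slc5a2 was first and Slc16a3 last in both genotypes. The means of the 7 between them spanned 12.1 to 19.4 CPM per kilobase in cKO and 4.77 to 66.9 in WT. In single libraries Slc5a8 lay above Slc5a2 in WT 2 (78.2 against 65.7) and WT 4 (81.0 against 74.4). Slc2a1 lay above Slc5a2 in cKO 4 (25.8 against 25.4).

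Among 17 other glucose and sugar transporter genes, 14 were tested, 1 was called higher and 3 lower in cKO, with a median log2 fold change of 0.14. Slc2a6, which encodes GLUT6, a carrier of intracellular membranes known from inflammatory macrophages and spleen, had 1.10, 3.37, 2.28 and 2.68 CPM in cKO 1 to cKO 4, against 0.345, 0, 0.0817 and 0 CPM in WT 1 to WT 4. It was nearly absent from WT kidneys, and the groups held 122 counts in cKO and 5 in WT in all. Its log2 fold change of 4.35 (SE 0.76, adjusted p 0.00356) rests on those few WT counts, and the call was kept without any single library and with the sex term. The 3 called lower were Slc2a13, the proton-coupled myo-inositol carrier (-1.90, adjusted p 0.00581), Slc5a3, the sodium-coupled myo-inositol carrier (-1.43, 0.00910), and Slc2a12, which encodes GLUT12 (-1.53, 0.0175). Slc2a12 lost its call without cKO 4, at an adjusted p of 0.0539, and with the sex term all 3 were called, at 0.0193 for Slc2a13, 0.0332 for Slc5a3 and 0.0331 for Slc2a12. Thus 2 of the 3 called lower are known to carry myo-inositol rather than glucose. Slc5a10, which encodes the mannose and fructose carrier SGLT5 of the proximal tubule and is named for that role, had 216 ± 88.7 CPM in cKO and 182 ± 36.5 CPM in WT (SD, n = 4 each) and was not called (log2 fold change 0.25, adjusted p 0.624). Slc5a4a, named after its values were seen, was at 0 in all 8 libraries.

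Among 16 other monocarboxylate transporter genes and partners, 15 were tested, 0 were called higher and 4 lower, with a median log2 fold change of -0.35. Slc16a7, which encodes the high-affinity carrier MCT2, had 44.9, 33.8, 31.8 and 24.7 CPM in cKO 1 to cKO 4, against 125, 74.2, 76.3 and 69.8 CPM in WT 1 to WT 4. All cKO libraries lay below all WT libraries, the opposite direction to Slc16a1, and the log2 fold change was -1.35 (SE 0.26, adjusted p 0.00555). Slc5a6, the sodium-coupled carrier of biotin and pantothenate, fell by 1.69 on the log2 scale (adjusted p 0.00534). Slc16a14 and Slc16a4 fell by 2.68 and 1.69, at adjusted p values of 0.0211 and 0.0277. The calls of Slc16a7 and Slc5a6 were kept without any single library and with the sex term. Slc16a14 lost its call without WT 3, at 0.0661, and with the sex term, at 0.0520, and Slc16a4 lost it without WT 2, cKO 2 or cKO 4, at up to 0.0944, but not with the sex term (0.0443).

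Bsg, which encodes basigin, the partner that carries MCT1 and MCT4 to the membrane, averaged 659 ± 57.9 CPM in cKO and 695 ± 254 CPM in WT (SD, n = 4 each). Its log2 fold change was -0.08 (adjusted p 0.874), and it was picked for its known role, as were the next 2 genes. Emb, which encodes embigin, the partner of MCT2, had a log2 fold change of 0.71 (adjusted p 0.0889). Mpc1, a subunit of the mitochondrial pyruvate carrier, had one of -0.90 (0.0712), so none of the 3 was called in the fit of all libraries. Without WT 1 Emb was called (0.00746), with a range from 0.00746 to 0.210 when single libraries were left out, and without WT 3 Mpc1 was (0.0460), with a range from 0.0460 to 0.187.

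**Figure D4:**
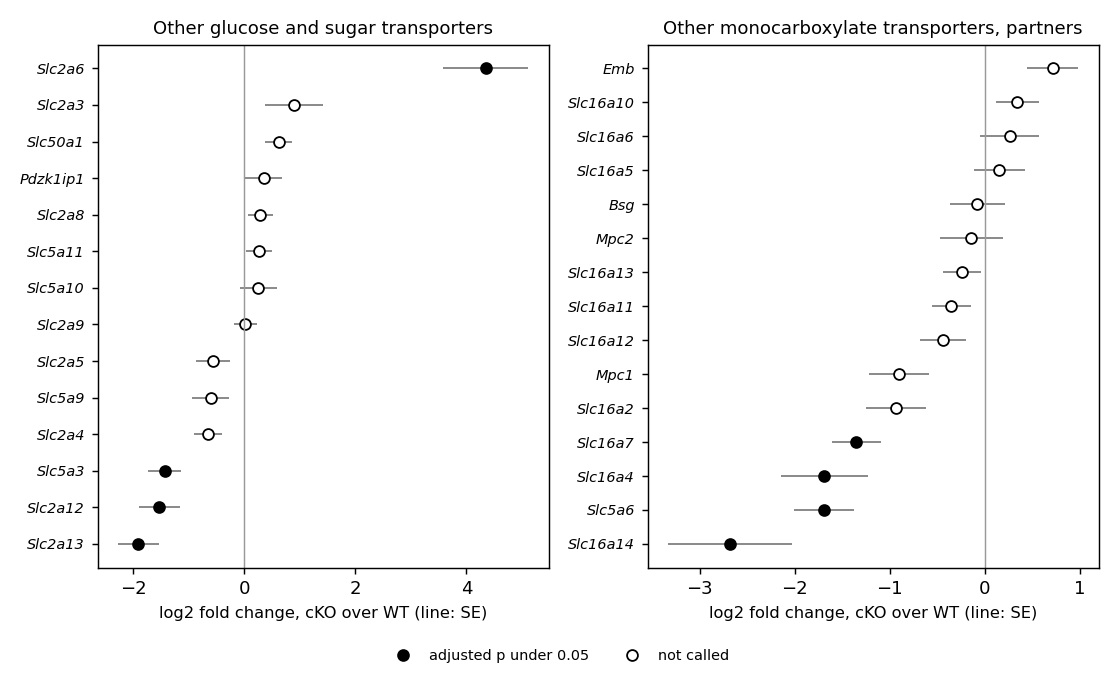
Log2 fold change, cKO over WT, with its SE, for the 14 tested genes of the other glucose and sugar transporters (left) and the 15 tested genes of the other monocarboxylate transporters and partners (right); filled points passed an adjusted p under 0.05. Slc2a6 is the only filled point above 0, and 3 on the left and 4 on the right lie below 0.

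Of 15 enzymes that act on the transported lactate, pyruvate, ketone bodies and sugars, 14 were tested, 2 were called higher and 4 lower, with a median log2 fold change of -0.78. The named enzymes of ketone body use fell in all libraries without overlap. Bdh1, which oxidises hydroxybutyrate, averaged 44.0 ± 19.2 CPM in cKO and 238 ± 56.0 CPM in WT (SD, n = 4 each; log2 fold change -2.43, adjusted p 0.000953). Oxct1, which activates acetoacetate, averaged 458 ± 167 CPM in cKO and 1529 ± 40.3 CPM in WT (SD, n = 4 each; -1.74, 0.00340). Acat1, the mitochondrial thiolase, had a log2 fold change of -1.89 (0.00454), and its adjusted p was 0.0532 with the sex term. With that term Bdh1 and Oxct1 were called, at 0.00230 and 0.0125, and none of the 3 lost its call when a single library was left out.

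Ldhd, the mitochondrial dehydrogenase of D-lactate, had 181, 141, 262 and 188 CPM in cKO 1 to cKO 4, against 176, 848, 1305 and 1423 CPM in WT 1 to WT 4. WT 1 again lay with the cKO libraries, as for Slc5a8 and Slc16a9. The log2 fold change of -2.28 (adjusted p 0.0135) lost its call without cKO 4, at 0.0524, and with the sex term, at 0.260. The main lactate dehydrogenase genes Ldha and Ldhb, named for their role, had log2 fold changes of -0.19 (adjusted p 0.611) and 0.19 (0.644) and were not called. The 2 called higher, named after their values were seen, were the hexokinase gene Hk2 (2.25, 0.0227) and Pdk4, whose product inhibits pyruvate dehydrogenase (1.64, 0.0279). Both lost their calls with the sex term, at 0.0907 for Hk2 and 0.235 for Pdk4, and without WT 4, cKO 2 or cKO 4, as Pdk4 did without WT 3, at up to 0.0735 for Hk2 and 0.0905 for Pdk4.

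Of 12 genes known to regulate these transporters, all were tested, 2 were called higher and 4 lower, with a median log2 fold change of -0.73. Pdzk1, a scaffold of brush border carriers, fell by 1.34 on the log2 scale (adjusted p 0.0307), and the nuclear receptor gene Hnf4a fell by 0.99 (0.0366). Ppara, the fatty acid receptor, fell by 1.38 (0.0374), and the stress factor gene Cebpb rose by 1.34 (0.0355). Each of these 4 lost its call with the sex term and without several single libraries, so 0 of the 12 was called with that term. Without WT 3, WT 4 or cKO 4 each of the 4 lost its call, as Pdzk1 did without WT 2, Cebpb without WT 1 or cKO 3, and Hnf4a and Ppara without WT 2, cKO 2 or cKO 3, at adjusted p values of up to 0.124. Hif1a and Epas1, which encode the oxygen-regulated subunits of hypoxia-inducible factors and were named for that role, had log2 fold changes of -0.17 (0.593) and -0.47 (0.218) and were not called.

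Markers of the cells that carry the transporters, and of other cells, are given beside these differences. Of 14 markers of the early and middle proximal tubule (segments S1 and S2), 4 were called lower and 0 higher, with a summed level of 3763 to 10450 CPM in cKO and 12700 to 15240 CPM in WT. With the sex term 1 of the 14 was called, and 1 to 5 were when single libraries were left out (1 without WT 3, WT 4, cKO 2 or cKO 4, and 2 without WT 2 or cKO 3). Of 10 markers of its last segment (S3), 5 were called lower and 0 higher, with 1481 to 4229 CPM in cKO and 5954 to 13790 CPM in WT. With the sex term 3 of these were called lower, and without WT 2, WT 3 or WT 4 also 3, and without cKO 4 there were 2. All proximal tubule markers were detected in both genotypes. The median log2 fold change was -0.78 for the S1 and S2 list and -1.87 for the S3 list, and with the sex term -0.72 and -1.15 in that order. The organic anion carrier gene Slc22a7 of S3 had a log2 fold change of -5.12 (adjusted p 7.5e-05, and 0.000126 with the sex term). The part of these markers' cells in the lower transporter levels was not tested.

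Of 9 tubular injury markers all 9 were called higher, also with the sex term and without any single library, with a summed level of 1878 to 4534 CPM in cKO and 326 to 560 CPM in WT. Of 8 fibroblast markers 7 were called higher and 1 lower, at 447 to 704 CPM in cKO and 122 to 208 CPM in WT. Of 10 distal nephron and collecting duct markers 4 were called higher and 2 lower, at 2654 to 5004 CPM in cKO and 3539 to 5810 CPM in WT. Of 8 endothelial markers 1 was called higher and 2 lower, at 273 to 458 CPM in cKO and 337 to 488 CPM in WT. Of 6 red blood cell markers 5 were tested and all 5 were lower, at 10.4 to 47.5 CPM in cKO and 73.3 to 616 CPM in WT. Hnf4a stood in both the regulator list and the S1 and S2 list, and Slc4a1 in both the distal and the red blood cell list. With the sex term 4 fibroblast, 0 distal and collecting duct, 1 endothelial and 3 red blood cell markers were called. When single libraries were left out, fibroblast markers called higher numbered 4 (without WT 4) to 7, and red blood cell markers called lower 2 (without WT 4 or cKO 2) or 3 (without cKO 4) to 5. The distal markers called then numbered 2 (without WT 2, cKO 1 or cKO 4) to 4 higher and 0 (without WT 3 or cKO 4) or 1 (without WT 4, cKO 2 or cKO 3) to 3 lower. Endothelial markers called numbered 0 (without cKO 3, cKO 4 or any WT library) or 1 higher, and 1 (without WT 3, cKO 2 or cKO 4) to 3 lower. The fibroblast marker called lower was lost without WT 3, cKO 1, cKO 2 or cKO 4. The parts of these cells in the transporter differences were not tested.

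**Figure D5:**
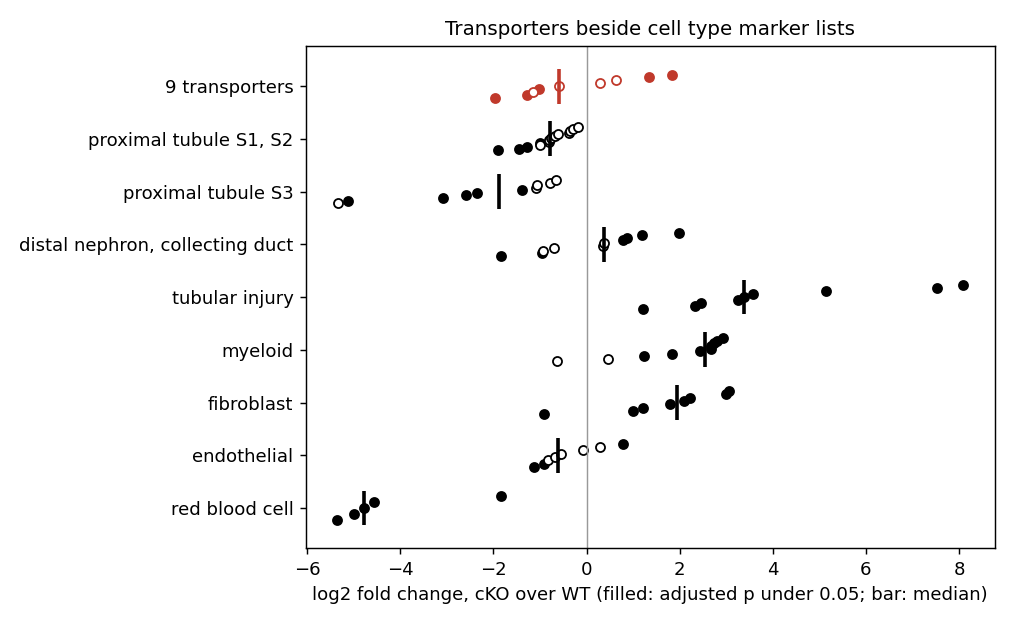
Log2 fold change, cKO over WT, of each tested gene of the 9 transporters (red, top row) and of the marker lists; filled points passed an adjusted p under 0.05 and vertical bars give each median. The transporters spread to both sides of 0 with a median of -0.60, the proximal tubule lists lie mostly below 0, and all 9 tubular injury markers lie above it.

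For each transporter the 3 genes with the most similar profile were found by the root mean square distance of their centred log2 CPM over the 8 libraries. Slc5a2 was nearest to Paqr9, Sema4g and Ccnd1, at distances of 0.131 to 0.179 where the median over all genes was 0.907. Slc5a8 was nearest to Odc1 (0.177), which encodes ornithine decarboxylase, Arhgef39 (0.215) and Upp2 (0.216). Odc1 had 859, 423, 879 and 420 CPM in cKO 1 to cKO 4 and 823, 3315, 3053 and 2402 CPM in WT 1 to WT 4, the same split of WT 1 from the other WT libraries. Slc16a1 was nearest to Ier5, Frk and Notch3, at 0.18 to 0.196. Slc5a1 was nearest to Zswim3, to the inositol carrier gene Slc5a11 and to Gstt3, at 0.112 to 0.119, and Slc2a2 to Ninl, to the glutamate carrier gene Slc1a1 and to Zswim5. Slc2a1 was nearest to Hoxd9, Dbn1 and Tmem63a, and Slc5a12 to Tbc1d32, Pigg and Rbl2. Slc16a3 was nearest to Tead2, Pea15a and Cyp4f16, and Slc16a9 to Pstpip2, Il22ra1 and Dhdh. No transporter was among the 3 nearest of another.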

How the data were processed

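Whole-kidney RNA of 8 mice was measured as stranded libraries of polyadenylated RNA, per the labels' protocols. STAR, RSEM and the build mm10 are named in the submitters' processing notes, while versions, annotation release and strand setting were not given in the sources used here. Unscaled RSEM expected counts were deposited by the authors for 47643 Ensembl genes, of which 47224 matched GENCODE annotation of the same build. All 72 values of the 9 transporters were whole numbers within 0.001. Counting error is set by these depths, 9454830 to 15838026 per library, and the intervals given are from the model fit over mice.

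Expected counts were rounded, filtered with filterByExpr, TMM-scaled and fitted with edgeR's quasi-likelihood test (robust, two-sided), 4 cKO against 4 WT libraries, with Benjamini-Hochberg adjustment over 13829 genes and a threshold of 0.05. For single transporters the difference in mean log2 CPM was permuted exactly (two-sided). A library was taken to bear a Y chromosome where Y-linked genes had 10 or more counts. No 2 libraries of a genotype were copies, the closest pair differing by a chi-square of 16.0 per gene. Same-numbered libraries were not taken as pairs. The text names all 9 transporters, up to 4 called genes with the smallest adjusted p of each list of other transporters, enzymes, regulators and markers, and 3 nearest profiles per transporter, leaving out predicted names; of the marker lists few genes are named, and genes outside this rule are marked as named for their role or after their values were seen. The members and lists were chosen with earlier results of these data known. Alternatives were other scalings, filters and tools, a threshold of 0.01, age, sex and replicate terms, contrasts within each sex, and leaving out single libraries, the 2.5-month pair or replicate 4 of both genotypes. The fits used edgeR 4.0.16, DESeq2 1.42.0 and limma 3.58.1 under R 4.3.3, and the tables and plots used scipy 1.17.1, numpy 2.4.6, matplotlib 3.10.9 and pandas 2.3.3 under Python 3.11.15. The fit was tested on simulated data, 4 against 4 libraries, without a sex difference. Of 13672 genes run, 97 were changed 2-fold and 99 were changed 4-fold. In the real data 16.7% of all genes were called, so the rates in the simulation need not be the real ones. The fit called 28.9% of the genes changed 2-fold and 83.8% of those changed 4-fold, and 9 of its 120 calls were false. A gene that was not called can therefore still differ.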

Additional observations from a re-analysis of the deposited data

Results flagged for a closer look

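A single library stood far from the other 3 of its genotype, by Dixon's ratio of the gap to the range, in 3 of 26 groups of 4 libraries. Chance flags about 1 in 20 groups, and the groups share libraries. Slc5a8 in WT 1 had 110.8 CPM, where the other WT libraries had 417 to 466 CPM. Slc16a9 in WT 1 had 64.78 CPM, where the other WT libraries had 151 to 168 CPM. Slc5a12 in cKO 1 had 115.8 CPM, where the other cKO libraries had 51.1 to 55.8 CPM. WT 1 was also the only WT library without Y-linked reads, and cKO 1 was 1 of 3 such cKO libraries, so sex and the single animal cannot be told apart for WT 1.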

How the results depend on the processing

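Every transporter kept the sign of its log2 fold change under all 22 alternative fits. When single libraries were left out it ran from 0.18 to 0.42 for Slc5a1, -1.49 to -1.06 for Slc5a2, 0.40 to 0.83 for Slc2a1, -0.80 to -0.38 for Slc2a2, -2.28 to -1.82 for Slc5a8, -1.40 to -0.91 for Slc5a12, 1.19 to 1.47 for Slc16a1, 1.48 to 2.28 for Slc16a3 and -1.55 to -0.89 for Slc16a9. The transporters called higher then numbered 1 to 3 and lower 1 to 4, other list genes 24 to 33 and 15 to 36, and all genes 815 to 1626 and 340 to 1467. The log2 ratio differences ran from 1.52 to 1.81 for Slc5a1 over Slc5a2, 1.08 to 1.55 for Slc2a1 over Slc2a2, 0.15 (without WT 4) to 1.09 for Slc16a3 over Slc16a1, and -1.15 (without WT 1) to -0.53 for Slc5a8 over Slc5a12.

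At an adjusted p under 0.01, Slc5a2 (-1.29), Slc5a12 (-1.02) and Slc16a3 (1.83) lost their calls, leaving 1 transporter higher and 1 lower, 19 and 11 other list genes, and 589 and 209 of all genes. With the sex term Slc5a2 (-1.23), Slc5a8 (-1.21), Slc5a12 (-1.06) and Slc16a3 (1.75) did, leaving 1 and 0 transporters, 21 and 16 list genes, and 715 and 226 of all. Within libraries without Y-linked reads Slc5a2 (-1.66), Slc5a8 (-0.39), Slc5a12 (-0.61), Slc16a1 (1.15) and Slc16a3 (0.87) were not called, with 0 and 0 transporters, 5 and 5 list genes and 62 and 58 of all. Within those with them the same 5 had -0.79, -2.02, -1.51, 1.22 and 2.59, with 0 and 0 transporters, 17 and 2 list genes and 413 and 67 of all. Without the 2.5-month pair Slc5a8 (-1.79), Slc5a12 (-0.98) and Slc16a3 (1.97) lost their calls, with 1 and 1 transporters, 17 list genes lower and 426 of all lower. Without replicate 4 of both genotypes, whose numbers in the file headers are later, Slc5a2 (-1.25), Slc5a8 (-1.74), Slc5a12 (-0.86), Slc16a1 (1.21) and Slc16a3 (1.39) did, with 0 and 0 transporters, 16 and 9 list genes and 417 and 151 of all. The last 4 alternatives used fewer libraries per contrast, and the cause of the other losses was not tested. With no scaling beyond library size the median log2 fold change over all genes shifted by 0.159, and Slc5a12 (-0.86) lost its call, with 21 list genes and 550 of all lower. By DESeq2 Slc16a9 (-1.15) was called. With the replicate block Slc16a3 (1.91, adjusted p 0.0508) lost its call, leaving 1 transporter higher. Residuals of same-numbered libraries correlated at -0.078, 0.281, 0.116 and -0.002, and those of differently numbered ones at -0.282 to 0.2, so the numbers were not taken as pairs. Of other named genes, Cyp4b1 (0.58), Gstt3 (-0.099), Slc5a11 (-0.093) and Zswim3 (-0.060) changed sign within the libraries without Y-linked reads, as did the uncalled Slc5a10 (-0.18), Ldhb (-0.087) and Hif1a (0.27). Uncalled Slc5a10 also did without replicate 4 of both genotypes (-0.0041), and uncalled Bsg did with library size alone (0.11), within libraries with Y-linked reads (0.27), without the 2.5-month pair (0.071) and when single libraries were left out (-0.25 to 0.13).

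Limits are the 1 WT library without and 1 cKO library with Y-linked reads, the 22 counts of Slc16a3 in WT, and whole tissue in which cell numbers and RNA per cell are mixed.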
